A study of Mus musculus with 6 samples.

Results

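The insulin-like growth factor (IGF) family was examined through 10 genes, chosen by symbol: the ligands *Igf1* and *Igf2*, the receptors *Igf1r* and *Igf2r*, and the binding proteins *Igfbp2* to *Igfbp7*. Each symbol was on 1 entry of an expression table with values for 37753 entries, and all 10 passed the filter at a mean of 1 FPKM (fragments per kilobase of transcript, scaled to the mapped fragments of the library), as did 12461 entries in all. *Igf2* passed it through 1 library alone, since its mean over the other 5 libraries was 0.867 FPKM. RNA was sequenced from 3 primary mammary epithelial cell (MEC) preparations of WAPCre+ mice and from 3 MEKO lines, numbered 199, 233 and 336. MEKO cells were grown from mammary tumors of mice whose genotype is labelled Mapk8KO Mapk9KO Cre+, and both groups carried Cre on a C57/Bl6J background. *Mapk8* and *Mapk9* encode the JNK protein kinases. Cre was driven by the promoter of whey acidic protein, a milk protein gene of luminal cells that is turned on by pregnancy and lactation. For a MEC preparation, 3 to 5 virgin females of 10 to 12 weeks gave their glands, and the pooled cells were cultured on collagen I in serum with epidermal growth factor and insulin. The tumors came from mice that had borne litters, and their ages are not given in the labels. Per the study's methods, females were bred at 10 to 12 weeks and watched for tumors after weaning, so the tumor mice were older. Tumor cells were passed 2 times on collagen I, moved to standard dishes and grown into established lines, and the study's methods name serum but neither insulin nor epidermal growth factor in their medium. Genotype, tumor origin, parity, animal age, time in culture and medium therefore cannot be told apart as sources of a difference between the groups, and each line is 1 tumor culture.

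IGF1 and IGF2 are secreted peptides related to insulin that promote growth and survival. Both act through the receptor tyrosine kinase encoded by *Igf1r*, which signals through insulin receptor substrate (IRS) proteins to PI3K and AKT and through adaptors to RAS. The product of *Igf2r* is also the cation-independent mannose 6-phosphate receptor. It takes IGF2 to lysosomes and carries no kinase. IGF binding proteins 2 to 6 hold IGFs in the fluid around cells with high affinity, can block or prolong their action and are cut by proteases, whereas the product of *Igfbp7* binds IGFs weakly. In the mammary gland, IGF1 made largely in stroma acts on duct growth, and IGFBP5 is known from the involuting gland after weaning.

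The labels were checked on the deleted genes. *Mapk8* stood at 22.5 ± 2.98 FPKM in MEC (SD, n = 3) and at 5.93, 3.12 and 1.37 FPKM in lines 199, 233 and 336. *Mapk9* stood at 22.7 ± 1.53 FPKM in MEC and at 7.62, 3.15 and 3.07 FPKM in the lines. Both genes were low in every line, and line 199 held the most of each. The summed FPKM of 8 epithelial markers was 6641 to 10910 in MEC and 1770 to 3025 in MEKO. That of 9 luminal markers was 4573 to 8242 in MEC and 444 to 1761 in MEKO. Markers of endothelium, leukocytes and adipocytes were low in all 6 libraries, with sums of at most 23.8, 24.9 and 11.8 FPKM. Fibroblast and myoepithelial markers were not, and their sums are given beside the genes they move with. Pearson's r of log2(FPKM + 1) across genes was 0.944 to 0.966 within MEC and 0.856 to 0.903 within MEKO, so the lines differed more among themselves than the MEC preparations did. Read numbers are not in the table, so absolute depth is unknown and no counting interval is given. An estimate from the lowest FPKM values ran from 0.92 times the depth of MEC 1 in MEC 3 to 1.30 times in line 199.

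Of the 10 genes, 1 was higher and 2 were lower in MEKO by limma, at a Benjamini-Hochberg adjusted p under 0.05 and a log2 fold change beyond 0.75. Over all 12461 tested entries the same rule called 9.90% (2.64% higher and 7.26% lower). *Igf1r* rose, *Igfbp4* and *Igfbp5* fell, and the other 7 genes did not pass. The groups did not overlap for these 3 genes, which was so for 37.2% of all tested entries. *Igfbp5* passed the filter through MEC, where it was high, so its call is given as a description. The median log2 fold change of the 10 genes was -1.26, beside 0.01 over all tested entries. Fold changes are on the log2(FPKM + 1) scale, which understates the change of low genes. The plot of levels shows the 10 genes in every library.

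**Figure D1:**
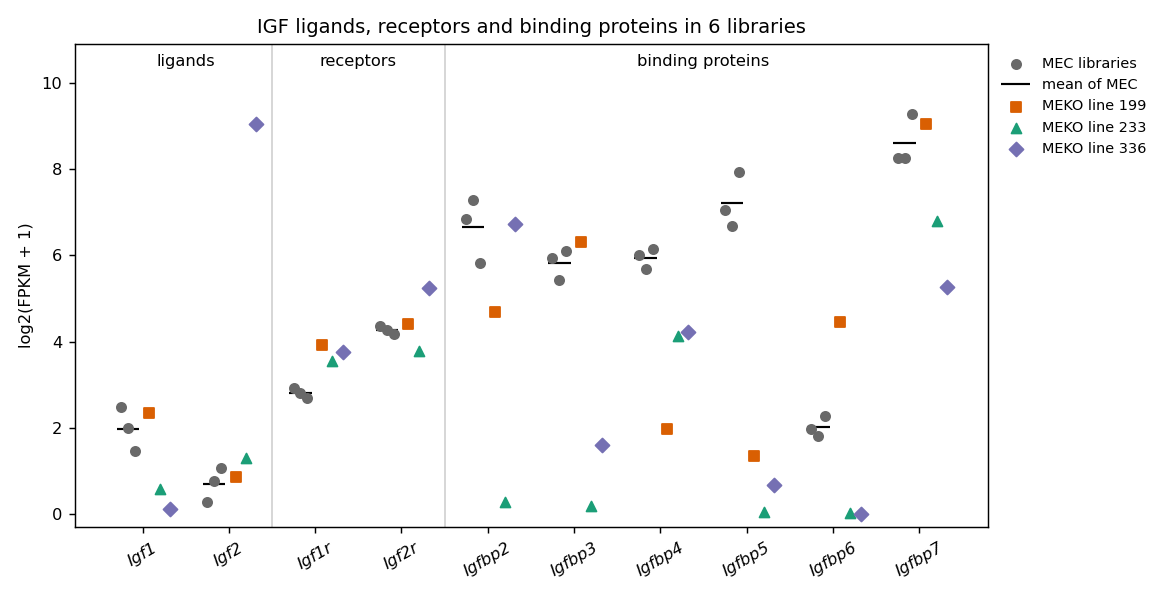
Levels of the 10 IGF family genes on a log2(FPKM + 1) axis, with 1 point per library, grey circles for the 3 MEC preparations, a black line at their mean, and colored symbols for the 3 MEKO lines. *Igf1r* lies higher in each line than in any MEC library, *Igfbp4* and *Igfbp5* lie lower, and *Igf2* at 529 FPKM in line 336 stands far from the other 5 libraries.

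The region before the transcription start is shown for these 3 genes, since they are the ones called in the group comparison. The sequences are the 250 bases upstream of the RefSeq start on GRCm38.p6, written 5′ to 3′ on the strand of the gene. Capitals mark matches, on either strand, to GGGCGG, the core of an SP1 site, or to TATAAA, the common form of the promoter element named for it. The AP1 site TGANTCA, bound by the JUN proteins that JNK phosphorylates, was also searched and is in none of the 3.
*Igf1r*, chr7:67952007-67952256, plus strand: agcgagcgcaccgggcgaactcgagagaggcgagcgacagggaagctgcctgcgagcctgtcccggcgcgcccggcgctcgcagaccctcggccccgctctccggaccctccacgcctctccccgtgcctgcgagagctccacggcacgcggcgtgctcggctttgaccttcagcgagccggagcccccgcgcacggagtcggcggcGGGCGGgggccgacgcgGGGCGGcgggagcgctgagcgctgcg
*Igfbp4*, chr11:99040994-99041243, plus strand: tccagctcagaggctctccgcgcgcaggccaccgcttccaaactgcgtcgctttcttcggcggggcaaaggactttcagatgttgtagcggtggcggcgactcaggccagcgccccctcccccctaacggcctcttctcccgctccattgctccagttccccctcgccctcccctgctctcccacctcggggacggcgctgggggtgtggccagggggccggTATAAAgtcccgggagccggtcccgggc
*Igfbp5*, chr1:72874866-72875115, minus strand: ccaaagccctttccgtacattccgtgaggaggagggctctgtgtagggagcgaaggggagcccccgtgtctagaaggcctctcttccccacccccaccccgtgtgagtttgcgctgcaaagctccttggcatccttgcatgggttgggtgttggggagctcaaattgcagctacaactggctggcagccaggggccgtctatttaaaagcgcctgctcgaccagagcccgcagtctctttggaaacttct
The *Igf1r* window holds GGGCGG 2 times, the *Igfbp4* window holds TATAAA 1 time and the *Igfbp5* window holds no match. RefSeq starts gave 14 such windows for the 10 genes. Of these, 6 held GGGCGG, 2 held TATAAA (*Igfbp4* and *Igfbp6*) and 2 held TGANTCA (*Igf1* and *Igfbp2*). Over 32851 promoters of the same length the shares with a match were 32.7% for GGGCGG, 12.4% for TATAAA and 6.75% for TGANTCA. A match describes letters and is not evidence of binding.

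*Igf1* (chr10:87858265-87937042, GRCm38, GENCODE release M21, as for all genes here) was at 4.58, 3.00 and 1.79 FPKM in MEC 1, 2 and 3. Lines 199, 233 and 336 had 4.14, 0.503 and 0.0971 FPKM. Line 199 lay inside the MEC range and both other lines lay below it. The difference did not pass (log2 fold change -0.96, standard error 0.61, adjusted p = 0.3496).

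*Igf2* (chr7:142650766-142666816), an imprinted fetal growth factor gene expressed from the paternal copy, was at 0.229, 0.713 and 1.10 FPKM in MEC. Line 199 had 0.823 FPKM and line 233 had 1.47 FPKM, whereas line 336 had 529 FPKM, 776 times the MEC mean. A single line thus carried the transcript at a high level, and the group comparison did not pass (log2 fold change 3.02, standard error 2.11, adjusted p = 0.390). Against the MEC mean, line 336 differed by 8.33 on the log2 scale. This is given as a description, since *Igf2* was tested only because of its level in that library. *H19*, the noncoding RNA gene 72.6 kb away that shares imprinting control with *Igf2* and is expressed from the maternal copy, was on an entry joined with *Mir675*. It was at 1.18, 1.16 and 3.97 FPKM in MEC and at 0.332, 0.0821 and 5.06 FPKM in lines 199, 233 and 336 (log2 fold change -0.47, adjusted p = 0.701). Line 336 had the highest value of both genes, but its *H19* value was close to that of MEC 3. *Igf2os*, a transcript antisense to *Igf2* that overlaps it over 7124 bp, was at 40.1 FPKM in line 336 and at 0 to 0.0349 FPKM in the other 5 libraries. Whether reads were counted by strand is not stated, so reads of *Igf2* and *Igf2os* cannot be told apart. *Ins2*, 11.8 kb from *Igf2*, and *Ins1* are the insulin genes of the mouse, and both were listed at 0 in all 6 libraries.

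The 10 tested genes nearest to *Igf2*, 5 on each side out to 792 kb, differed from MEC in line 336 by -1.90 to 2.00 on the log2 scale, with a median of 0.18, beside 8.33 for *Igf2*. In the group comparison 2 of them were called higher and 1 lower. Gene expression alone carries no allele information, so the parental copy in use was not measured.

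*Igf1r* (chr7:67952827-68233668) was at 6.59, 6.07 and 5.50 FPKM in MEC and at 14.3, 10.8 and 12.5 FPKM in lines 199, 233 and 336. Every line lay above every MEC library, and the means were 6.05 ± 0.541 and 12.5 ± 1.76 FPKM (SD, n = 3). This was a log2 fold change of 0.93 (standard error 0.17, adjusted p = 0.0233), and the exact permutation test gave p = 0.1, the smallest that 3 libraries against 3 allow. Line by line, lines 199 and 336 passed with log2 differences of 1.12 (adjusted p = 0.0373) and 0.94 (0.0402), and line 233 did not pass at 0.74 (0.0683), with a standard error of 0.17 for each. The group call was lost when MEC 1 (adjusted p = 0.0992), MEC 2 (0.103), MEC 3 (0.0846) or line 336 (0.0534) was left out, with a log2 fold change of 0.84 to 1.03 over the 6 fits that leave out 1 library.

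*Igf2r* (chr17:12682406-12769664) was at 19.6, 18.3 and 17.1 FPKM in MEC and at 20.2, 12.7 and 36.8 FPKM in lines 199, 233 and 336. The lines lay on both sides of the MEC values and the group difference did not pass (log2 fold change 0.21, adjusted p = 0.738; -0.18 without line 336). Line 336, the line with high *Igf2*, stood 0.97 above MEC on the log2 scale (standard error 0.14, adjusted p = 0.0268). *Airn*, an RNA antisense to *Igf2r* that overlaps it over 28354 bp, was at 2.41 to 5.67 FPKM in MEC and 2.28 to 5.01 FPKM in MEKO, and reads from the shared stretch cannot be told apart.

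The insulin receptor can pair with the IGF1 receptor, so its gene was set beside *Igf1r*. *Insr* was at 6.30, 5.87 and 8.88 FPKM in MEC and at 3.97, 5.33 and 4.86 FPKM in lines 199, 233 and 336, a log2 fold change of -0.47 that did not pass (standard error 0.21, adjusted p = 0.204). Within a library, *Igf1r* was 1.05, 1.04 and 0.620 times *Insr* in MEC 1, 2 and 3. The same ratio of FPKM was 3.59, 2.02 and 2.57 in lines 199, 233 and 336. Each line thus held more *Igf1r* than *Insr* transcript per length, at a ratio above that of every MEC library. No test was made on the ratio.

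*Igfbp5* (chr1:72857932-72874884) had the largest fall of the 10 genes. It was at 131, 103 and 244 FPKM in MEC and at 1.55, 0.0318 and 0.591 FPKM in lines 199, 233 and 336. No line reached 1% of the MEC mean, and the highest, line 199, had 0.974% of it. The means were 159 ± 75.0 and 0.725 ± 0.769 FPKM (SD, n = 3), a log2 fold change of -6.54 (standard error 0.44, adjusted p = 0.00139; exact permutation p = 0.1, the smallest possible). Each line passed against MEC, by -5.87 (adjusted p = 0.0202), -7.18 (0.0104) and -6.56 (0.0114) with a standard error of 0.56. Without any one library the group log2 fold change stayed between -6.87 and -6.18 and the call held. *Igfbp5* passed the filter through MEC, where it was high, since its MEKO mean was under 1 FPKM. Its tests are therefore given as a description. With no filter its group adjusted p by limma was 0.00534. In bulk RNA, fewer cells of a type that expresses a gene and less RNA of that gene per cell cannot be told apart.

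*Igfbp4* (chr11:99041244-99054392) fell less far and unevenly. MEC had 63.7, 50.2 and 69.8 FPKM, against 2.95, 16.5 and 17.7 FPKM in lines 199, 233 and 336. The means were 61.2 ± 10.0 and 12.4 ± 8.18 FPKM (SD, n = 3), a log2 fold change of -2.50 (standard error 0.60, adjusted p = 0.0494; exact permutation p = 0.1). Line 199 was the lowest, at -3.96 on the log2 scale (adjusted p = 0.0116), and lines 233 and 336 were at -1.82 (0.0235) and -1.72 (0.0240), with a standard error of 0.23 for each. The group p lay close to the threshold. It was 0.159, 0.134 and 0.169 without MEC 1, 2 and 3, 0.0641 without line 233 and 0.0561 without line 336, and it passed at 0.00394 without line 199. The call was also lost with a pseudocount of 0.1 (0.0603), no filter (0.0833), a filter at 5 FPKM (0.0531) and no mean-variance trend (0.0548).

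*Igfbp2* (chr1:72824503-72852474) lies 5457 bp from *Igfbp5* on the opposite strand. It was at 114, 155 and 56.1 FPKM in MEC, and the lines spread over a wide range, with 24.8, 0.2199 and 106 FPKM in lines 199, 233 and 336. The group difference did not pass (log2 fold change -2.75, standard error 1.55, adjusted p = 0.294). Line 233 fell by 6.37 on the log2 scale (adjusted p = 0.0144). Line 336 kept *Igfbp2* inside the MEC range, although its *Igfbp5* was at 0.371% of the MEC mean. The 10 tested genes nearest to *Igfbp5*, *Igfbp2* among them, had a median log2 fold change of -0.03 and none was called. Those nearest to *Igfbp4* had a median of 0.00 and none was called, and those nearest to *Igf1r* had a median of -0.20 with 1 higher and 1 lower.

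*Igfbp3* (chr11:7206086-7213923), the main carrier of IGFs in blood, was at 60.9, 41.8 and 67.4 FPKM in MEC. Line 199 had 78.3 FPKM, line 233 had 0.137 and line 336 had 2.06. The first of these lay above all MEC values and the other two far below them. Lines 233 and 336 passed against MEC at -5.64 (adjusted p = 0.0067) and -4.21 (0.0101), and line 199 did not pass at 0.49 (0.337), with a standard error of 0.32 for each. As a group the lines did not pass (log2 fold change -3.12, standard error 1.48, adjusted p = 0.225). *Igfbp1*, whose gene lies 3539 bp from *Igfbp3*, was listed at 0 in all 6 libraries.

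*Igfbp6* (chr15:102144362-102149511), which binds IGF2 in preference to IGF1, was at 2.92, 2.54 and 3.83 FPKM in MEC. It was at 20.8 FPKM in line 199 and 0.0274 FPKM in line 233, and it was listed at 0 in line 336. Line 199 passed as higher than MEC (log2 difference 2.43, adjusted p = 0.0217), and lines 233 (-1.98, 0.0215) and 336 (-2.02, 0.0193) passed as lower, with a standard error of 0.24 for each. The group comparison averaged these and did not pass (log2 fold change -0.53, adjusted p = 0.800).

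*Igfbp7* (chr5:77349240-77408041) had the highest mean of the 10 genes. MEC had 305, 305 and 624 FPKM, line 199 had 524, line 233 had 110 and line 336 had 37.5. Only line 199 stayed inside the MEC range. Line 336 passed against MEC (-3.34, standard error 0.51, adjusted p = 0.0301), line 233 did not (-1.80, adjusted p = 0.103), and neither did the group (-1.57, standard error 0.91, adjusted p = 0.309).

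Read by line, 2 of the 10 genes were higher and 2 lower in line 199, where 13.0% of all tested entries were called (5.04% and 7.94%). In line 233, 0 were higher and 5 lower, against 15.4% of all entries (5.06% and 10.3%). In line 336, 3 were higher and 5 lower, against 16.9% (5.85% and 11.1%), and *Igf2*, tested only through that line, is 1 of the 3. The 5 that fell in line 233 were *Igfbp2* to *Igfbp6*, and in line 336 they were *Igfbp3* to *Igfbp7*. *Igfbp5*, which passed the filter through MEC, is among the lower genes of each line. These tests take their spread from the 3 MEC libraries alone. Without MEC 1, none of the 10 genes was called in any line, and without MEC 2, 0 were called in line 199 and 3 in line 336. Without MEC 3 the counts were 6, 7 and 9 in lines 199, 233 and 336. The plot of differences by line shows where the 3 lines agreed and where they parted.

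**Figure D2:**
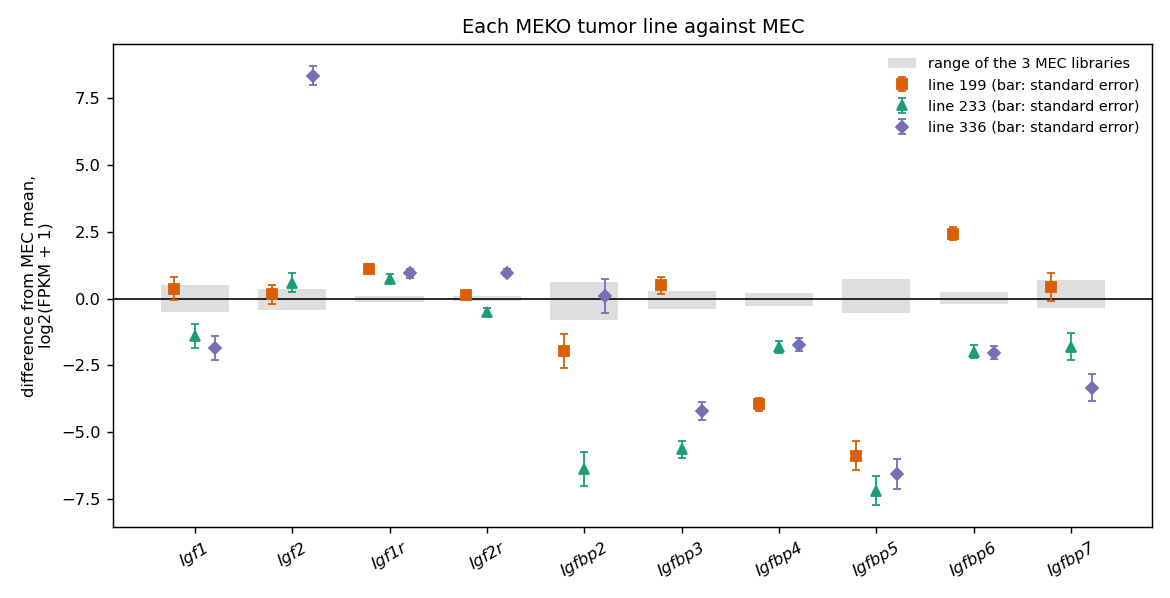
Difference of each MEKO line from the MEC mean on the log2(FPKM + 1) scale for the 10 genes, with the standard error of the limma fit as bars and the range of the 3 MEC libraries as grey boxes. The 3 lines lie outside the MEC range on the same side for *Igf1r*, *Igfbp4* and *Igfbp5*, *Igfbp6* is higher in line 199 and lower in both other lines, and *Igf2* stands at 8.33 in line 336.

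FPKM is per length, so levels of the binding proteins can be added within a library. The 6 genes summed to 677, 657 and 1066 FPKM in MEC, and to 652, 127 and 163 FPKM in lines 199, 233 and 336. Line 199 was just below the MEC range, but its mixture differed. *Igfbp7* made up 45.0%, 46.4% and 58.6% of the sum in MEC, 80.3% in line 199 and 86.7% in line 233. In line 336 *Igfbp7* was 22.9% and *Igfbp2* was 64.6%, which made *Igfbp2* the leading binding protein transcript of that line. *Igfbp5* was 15.6% to 22.9% of the sum in MEC and at most 0.362% in a line. Without *Igfbp7*, whose product binds IGFs weakly, the sum was 388 ± 47.0 FPKM in MEC and 90.4 ± 63.6 FPKM in MEKO (SD, n = 3). For each FPKM of *Igf1r* there were 103, 108 and 194 FPKM of the 6 binding proteins in MEC, with *Igfbp7* included. The same ratio was 45.7, 11.8 and 13.1 in lines 199, 233 and 336. The sums have no test.

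**Figure D3:**
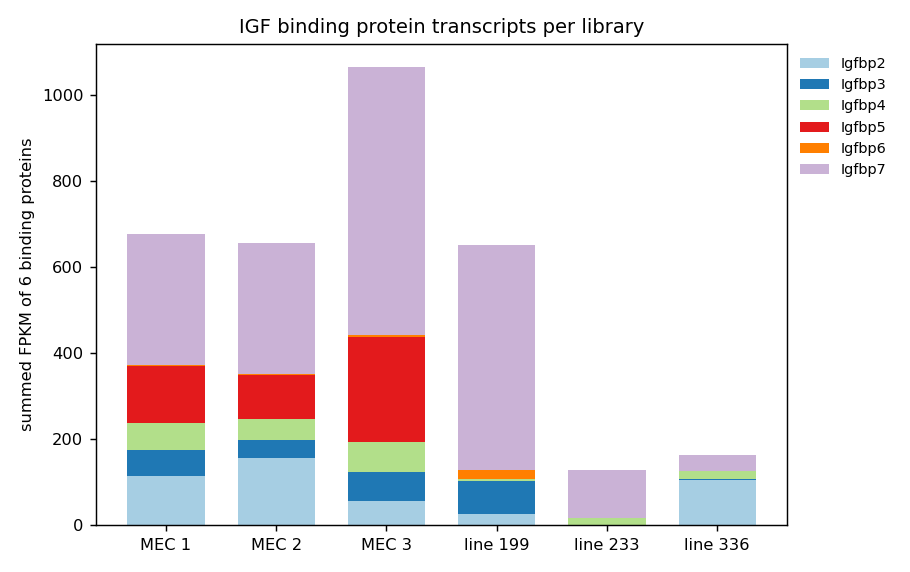
Stacked bars of the FPKM of *Igfbp2* to *Igfbp7* in each of the 6 libraries, with the summed FPKM on a linear axis from 0. The *Igfbp5* block seen in each MEC library cannot be seen in the 3 lines, where it is at most 0.362% of the sum, *Igfbp7* fills most of lines 199 and 233, and *Igfbp2* fills most of line 336.

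*Igf1*, *Igfbp3*, *Igfbp6* and *Igfbp7* were alike in that line 199 stood within or above the MEC range and lines 233 and 336 stood below it. Over the 6 libraries Pearson's r of log2(FPKM + 1) among these genes reached 0.88 for *Igf1* with *Igfbp3* and 0.86 for *Igfbp3* with *Igfbp7*, as a description of 6 points that share their libraries. The sums of the fibroblast list and of the basal and myoepithelial list split the libraries in the same way. Their single markers did not all do so, since in line 199 some lay near or above MEC and others below it. The summed FPKM of 12 fibroblast markers was 397, 491 and 565 in MEC, and 1441, 3.12 and 4.57 in lines 199, 233 and 336. Of the 8 that were tested, 2 were higher and 1 was lower than MEC in line 199, 7 were lower in line 233 and 6 were lower in line 336. Over all tested entries, 5.04% were higher and 7.94% lower in line 199, and 10.3% and 11.1% were lower in lines 233 and 336. As a list, the markers had nearly all their FPKM in MEC and line 199 and passed the filter mainly there. Their counts are therefore a description. *Dcn* was listed at 0 in line 233, and *Lum* in lines 233 and 336. The sum of 9 basal and myoepithelial markers was 1570 to 2865 FPKM in MEC, and 2277, 10.8 and 58.7 FPKM in lines 199, 233 and 336. Line 199 also held the most *Mapk8* and *Mapk9* of the lines. Per the study, MEKO tumors included adenocarcinoma, adenosquamous carcinoma and tumors with traits of both, and tumor type was not used here. The part of tumor type, or of the marker, *Mapk8* and *Mapk9* differences, in the levels of the 4 IGF genes was not tested. *Igfbp5* did not split the libraries in this way, since line 199 had 0.974% of its MEC mean.

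Without line 199, *Igf1* (adjusted p = 0.0369), *Igfbp3* (0.00294), *Igfbp6* (0.00647) and *Igfbp7* (0.0319) passed as lower, and 7 of the 10 genes were called in all. These genes were grouped above by the place of line 199. Leaving that line out favors such calls, so they are given as a description. The number of calls over all entries rose in the same fit, from 1234 to 1966.

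**Figure D4:**
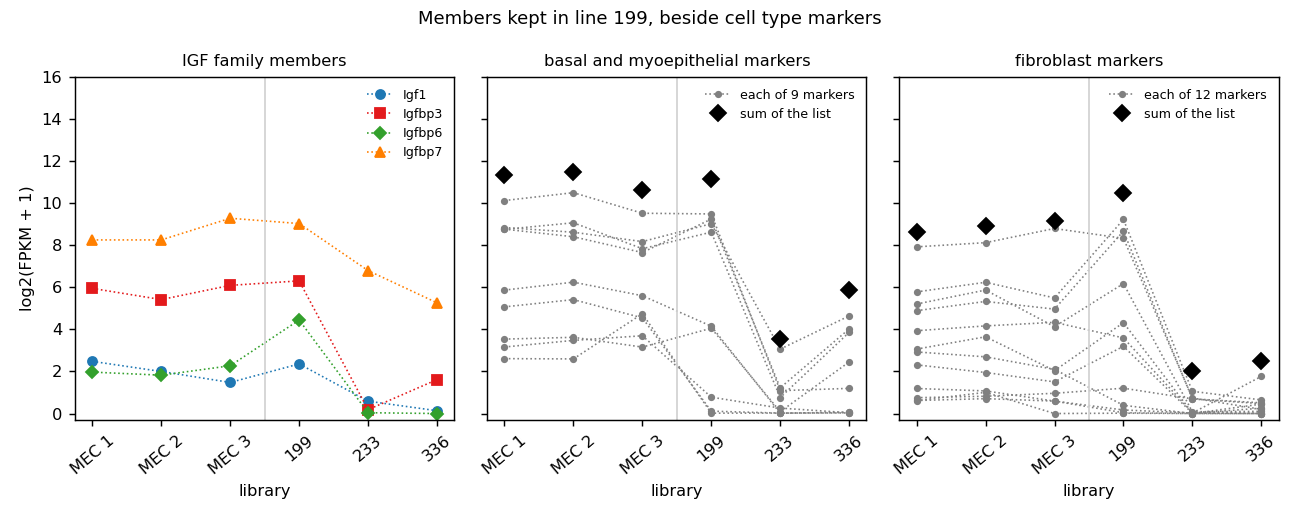
Values of log2(FPKM + 1) in the 6 libraries for *Igf1*, *Igfbp3*, *Igfbp6* and *Igfbp7* (left), for all 9 basal and myoepithelial markers (middle, grey) and for all 12 fibroblast markers (right, grey), where dotted lines only join the points of a gene and black diamonds give log2(sum + 1) of the list. The 4 genes and both sums lie lower in lines 233 and 336 than in any MEC library, while in line 199 some markers lie near or above MEC and others below it.

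The other genes of the IGF axis were read from 8 lists of 109 genes, of which 89 were tested. In MEKO 5 were higher and 13 lower, or 5.62% and 14.6% of those tested, beside 2.64% and 7.26% of all tested entries. The counts by list that follow are read against the same shares and have no test of their own. They include *Igf2bp1*, which passed the filter through the lines, and *Igfals*, *Deptor* and *Itgb3*, which passed it through MEC. The counts are therefore a description. The insulin receptor family list had 1 tested gene, *Insr*, and no call.

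Among receptor substrates and adaptors, 1 of 17 rose and 3 fell (median log2 fold change -0.18). The 2 main docking proteins of the IGF1 and insulin receptors moved in opposite directions. *Irs2* was at 2.76, 2.60 and 2.43 FPKM in MEC and at 11.1, 10.98 and 11.4 FPKM in the lines (log2 fold change 1.76, standard error 0.15, adjusted p = 0.00253). *Irs1* was at 9.78, 8.44 and 10.7 FPKM in MEC and at 3.70, 5.83 and 3.55 FPKM in lines 199, 233 and 336 (log2 fold change -1.01, standard error 0.22, adjusted p = 0.0377). Within a library, *Irs1* exceeded *Irs2* by 3.25 to 4.39 times in MEC and was 0.311 to 0.531 times *Irs2* in MEKO. *Nck2*, an adaptor, fell by 1.07 on the log2 scale (adjusted p = 0.0119). *Ptpn1*, a phosphatase that acts on the insulin receptor, fell by 0.93 (adjusted p = 0.0374).

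In the list for PI3K, AKT, mTOR and FOXO, 0 of 29 rose and 3 fell, with a median of 0.02. *Deptor*, which encodes an inhibitor of mTOR, went from 8.09 ± 2.08 to 0.557 ± 0.455 FPKM (SD, n = 3; log2 fold change -2.56, adjusted p = 0.00507). It passed the filter through MEC, where it was high, so its test is given as a description. *Foxo1*, a transcription factor that AKT keeps out of the nucleus, fell by 1.40 (adjusted p = 0.0446). The share called, 10.3%, was near that of all tested entries.

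Of 12 tested genes for IGF release and transport, 1 rose and 3 fell (median -1.58). *Htra1*, a secreted protease that can cut IGFBP5, was at 166, 197 and 180 FPKM in MEC and 295, 296 and 485 FPKM in lines 199, 233 and 336 (log2 fold change 0.95, standard error 0.23, adjusted p = 0.0487), and this call was lost in 10 of 14 alternatives. *Stc2*, whose product inhibits the IGFBP4 protease PAPP-A, fell from 17.1 ± 5.15 to 2.31 ± 1.72 FPKM (SD, n = 3; log2 fold change -2.59, adjusted p = 0.0280). *Pappa* itself was at 6.63, 3.71 and 22.3 FPKM in MEC and at 2.79, 1.16 and 0.0459 FPKM in the lines and did not pass (adjusted p = 0.104). It is named after its values were seen, beside its inhibitor. *Igfals*, the third protein of the complex that carries IGFs in blood, was at 2.09 to 3.00 FPKM in MEC, at 0.0318 FPKM in line 199 and listed at 0 in lines 233 and 336 (adjusted p = 0.00853). It passed the filter through MEC, and without MEC 3 it was not tested. *Mmp9*, a matrix metalloproteinase, had a log2 fold change of -5.20 (adjusted p = 0.0110).

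No gene of 5 tested among proteins related to IGFBPs was called. Of 9 surface partners of binding proteins, 2 integrin subunits fell. *Itgb3* went from 17.0 ± 4.02 to 0.507 ± 0.840 FPKM (SD, n = 3; log2 fold change -3.69, adjusted p = 0.00447), and *Itgb1* from 603 ± 12.0 to 222 ± 125 FPKM (-1.57, adjusted p = 0.0426). *Itgb3* passed the filter through MEC, where it was high, so its test is given as a description. In the list for mannose 6-phosphate sorting, which *Igf2r* shares, 0 of 10 rose and 2 fell. *M6pr*, the smaller of the mannose 6-phosphate receptors, fell from 107 ± 7.57 to 52.4 ± 7.08 FPKM (log2 fold change -1.02, adjusted p = 0.0137), and *Sort1*, a sorting receptor, fell by 1.51 (adjusted p = 0.0240).

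The list for *Igf2* mRNA and imprinting had 3 of 6 tested genes higher and 0 lower. These encode RNA-binding proteins that bind *Igf2* mRNA and a chromatin protein. *Igf2bp2* was at 5.11, 5.43 and 3.67 FPKM in MEC and 47.0, 35.3 and 45.5 FPKM in lines 199, 233 and 336 (log2 fold change 2.93, standard error 0.20, adjusted p = 0.00143). *Igf2bp1* was at 0.174 and 0.0617 FPKM in MEC 1 and 2 and listed at 0 in MEC 3. The lines had 3.76, 7.67 and 6.78 FPKM (log2 fold change 2.67, standard error 0.29, adjusted p = 0.00453). *Igf2bp1* passed the filter only through the lines, where it was high, so its test is given as a description. *Hmga2*, which is known to raise *Igf2bp2* transcription, was at 2.30, 1.99 and 1.21 FPKM in MEC and 83.7, 116 and 75.8 FPKM in the lines (log2 fold change 5.03, standard error 0.24, adjusted p = 0.000645). Each line lay above every MEC library for these 3 genes, whereas *Igf2* was high in line 336 alone. *Lin28b*, named after its values were seen, was under the filter, with 0 to 0.0312 FPKM in MEC and 1.10, 0.953 and 0.530 FPKM in lines 199, 233 and 336.

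**Figure D5:**
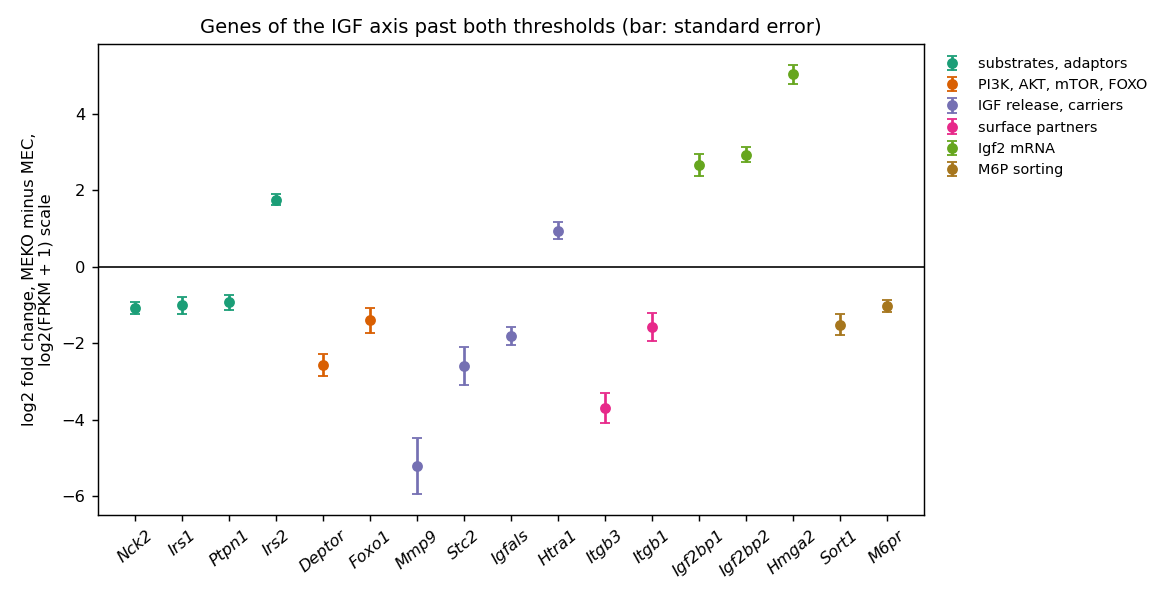
Log2 fold change of MEKO minus MEC for 17 of the 18 genes of the IGF axis that passed both thresholds, colored by list, with the standard error of the limma fit as bars. *Hmga2*, *Igf2bp2*, *Igf2bp1*, *Irs2* and *Htra1* lie above 0 and the other 12 plotted lie below it.

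Of these 18 calls, 6 held in each fit that left out 1 library: *Irs2*, *Deptor*, *Itgb3*, *Igf2bp1*, *Igf2bp2* and *Hmga2*. Among them, *Igf2bp1* passed the filter only through the lines, and *Deptor* and *Itgb3* only through MEC. The calls of these genes are given as a description. Without MEC 1 or without MEC 2 these 6 were the only calls, and without MEC 3 *Nck2* and *Mmp9* were called too. Without line 233, *Foxo1* (adjusted p = 0.101), *Htra1* (0.0658), *Itgb1* (0.1002) and *Ptpn1* (0.0724) were lost. Without line 336, *Foxo1* (0.0984), *Irs1* (0.0805), *Itgb1* (0.0872), *Ptpn1* (0.0809) and *Sort1* (0.0602) were lost, and so was *Htra1*, whose log2 fold change of 0.71 was under the threshold. Without line 199, *Irs1* was lost (0.0503). *Htra1* was also lost with a pseudocount of 0.1 (0.0509), no filter (0.0759), a filter at 5 FPKM (0.0548), upper-quartile scaling (0.0505) and no mean-variance trend (0.0609). With no filter *Foxo1* (0.0755), *Irs1* (0.0672), *Itgb1* (0.0741) and *Stc2* (0.0518) were lost. The filter at 5 FPKM lost *Foxo1* (0.0502) and *Irs1* (0.0528), quantile normalization lost *Itgb1* (0.0508) and the pseudocount of 0.1 lost *Stc2* (0.0578). *Deptor*, *Igfals* and *Igf2bp1* did not reach the filter at 5 FPKM and could not be tested there, which left 12 calls.

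The tested entries whose log2(FPKM + 1) followed the called genes most closely over the 6 libraries were listed by Pearson's r, as a description. For *Igf1r* they were *Wdr70*, *Fra10ac1* and *Scmh1* (r = 0.998 for each). For *Igfbp4* they were *Syne4* (0.995), *Cmtm8* (0.993) and *Mbnl2* (0.993), and like *Igfbp4*, *Syne4* was lowest in line 199. For *Igfbp5* they were *Slc12a2* (0.999), *Mdp1* (0.998) and *Itih5* (0.998). Among the 10 genes themselves, *Igf1r* ran opposite to *Igfbp5* (r = -0.94) and to *Igfbp4* (r = -0.93). These are the genes called between the groups, in opposite directions, so a negative r follows from the group difference itself.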

How the data were processed

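RNA-seq libraries of 3 MEC preparations and 3 MEKO tumor cell lines were analysed, and groups were taken from the sample titles and descriptions. Per the labels and the study's methods, the authors aligned reads to mm10 with Bowtie2 and TopHat2 2.0.14 and quantified genes with Cufflinks 2.2.1; Cuffdiff, also named in the processing notes, was not repeated. The deposited table gives FPKM, a value that the authors had scaled to the length of the transcript and the size of the library. Read numbers are not given, so absolute depth is unknown, and strand settings are not given in the sources used here. The labels give no batch. Each group holds separate preparations or lines.

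Entries with a mean of at least 1 FPKM were tested on log2(FPKM + 1) by limma 3.58.1 (R 4.3.3), allowing for a mean-variance trend, and p was adjusted by Benjamini-Hochberg over 12461 entries. A call needed an adjusted p under 0.05 and a log2 fold change beyond 0.75. Each line was also fitted against MEC. Exact permutation tests were two-sided. Positions are from GENCODE M21. The genes and lists were chosen with earlier results of these data known. Named were the 10 genes, *Mapk8* and *Mapk9*, up to 5 called genes a list, *Insr*, *Ins2*, *H19* and *Igfbp1*, and the 3 entries most like each called gene; other names were chosen after their values were seen. One called gene of the lists is not reported here. Alternatives were a pseudocount of 0.1, no filter, a filter at 5 FPKM, quantile and upper-quartile scaling, no trend, sample weights, no fold threshold, a ratio of means, summed entries and each library left out.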

Additional observations from a re-analysis of the deposited data

Results flagged for a closer look

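*Igfbp6* was picked out because the lines moved in opposite directions against the same MEC libraries. Line 199 stood 2.43 above the MEC mean on the log2(FPKM + 1) scale, line 233 stood at -1.98 and line 336 at -2.02. The difference between the lines was not tested, since each line is 1 library. Fibroblast markers summed to 1441, 3.12 and 4.57 FPKM in lines 199, 233 and 336, and their part in the values of *Igfbp6* was not tested.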

How the results depend on the processing

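Of the 10 genes, 3 were called as reported, 2 with a pseudocount of 0.1, with no filter, with a filter at 5 FPKM or with no mean-variance trend, and 4 with sample weights. Leaving out 1 library gave 1 to 7 calls: 1 without MEC 1, MEC 2, MEC 3 or line 336, 2 without line 233 and 7 without line 199. *Igfbp5* passed under all 15 alternatives (adjusted p 0.000252 to 0.0117), as a description, since it reached the filter through MEC, where it was high. *Igf1r* passed in 11 of 15 (0.0171 to 0.103), and *Igfbp4* in 6 of 15 (0.00394 to 0.169). The 18 calls among other genes of the axis became 6 to 23 when 1 library was left out (6 without MEC 1 or MEC 2, 8 without MEC 3). By line, leaving out 1 MEC library gave 0 to 6 calls for line 199, 0 to 7 for line 233 and 0 to 9 for line 336 (0 in each line without MEC 1), and with no filter line 233 had 3 and line 336 had 4. The direction turned for *Igf2r* without line 336 (range -0.18 to 0.55 over left-out libraries) and for *Igfbp6* without line 233 (0.20), without line 336 (0.22; lowest value -2.00, without line 199) and as a ratio of mean FPKM (1.17), and neither gene was called in the fits that turned it. The cause of these changes was not tested, beyond the smaller number of libraries. *Igf2* without line 336 and *Igfals* without MEC 3 fell under the filter and could not be tested. With the filter at 5 FPKM, the same was so for *Igf1*, *Deptor*, *Igfals* and *Igf2bp1*. No symbol was on more than 1 entry, so summing entries changed nothing. No paired analysis was possible because the groups share no replicate numbers. Low genes such as *Igf2* in MEC are measured with the least precision.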
